A study of Sus scrofa with 6 samples.

Results

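Differentiating keratinocytes are the epidermal cells that have left the basal layer and make keratin 1 and keratin 10. They were picked out of 6 droplet-based single-cell RNA sequencing libraries of skin by their UMIs (unique molecular identifiers, each standing for 1 captured RNA molecule). A barcode is the tag of 1 droplet. Barcodes were kept with 500 or more gene UMIs, 300 or more genes and a mitochondrial share of no more than 20%, and 83559 of 88337 met these limits. Of the kept barcodes, 77 (0.0922%) were selected as members. A member had at least 3 UMIs of Krt1 (ENSMUSG00000046834) and Krt10 (ENSMUSG00000019761) together and at least 3 of Krt14, Krt5 and Krtdap (ENSMUSG00000074199) together. It also had 0 UMIs of Ptprc, the leukocyte antigen CD45, and at most 2 of Col1a2, a collagen chain of fibroblasts. The members were thus chosen by their measured levels of these 7 genes, which are given below as a description with no test.

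The labels described unsorted cells from skin of red duroc pigs (Sus scrofa), 1 library per label. Of the 6 labels, pretreatment stood for a 1 mg patch of deferoxamine (DFO, an iron chelator) 2 weeks before radiotherapy. Continuous was the patch for 18 weeks in total, over the entire span of the experiment. Acute was the patch with 12 weeks of recovery after radiation, and chronic the patch at 4 weeks after recovery of radiation. The last 2 were labelled only as irradiated skin and as normal skin, with no patch named. Ages, the number of animals and the radiation dose are not given in the sources used here. The files went against the labels: all 32285 gene features of every library were mouse Ensembl genes, 4 antibody tags against mouse cells were counted in the libraries labelled acute, chronic, irradiated and normal, and the title of the series named an anti-JUN treatment of adhesions. The names used here are those of the labels, and differences between libraries are not ascribed to the patch or to irradiation.

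The libraries held 18611144 to 54966435 gene UMIs and their median barcodes 1339 to 7040. The 15 pairs of libraries shared 3 to 153 barcode sequences, and 1 member had a barcode that also occurred in another library. With 8 to 23 members in a library and 1 library per label, no test between labels was possible, and levels are given with 95% Poisson intervals that cover counting error only.

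In the epidermis, keratinocytes divide in the basal layer, where they make keratins 5 and 14 and hold to the basement membrane through hemidesmosomes and integrins. Cells that leave this layer switch to keratins 1 and 10, strengthen their desmosomes, and in the granular layer load the proteins and lipids of the cornified barrier, among them loricrin and filaggrin. After wounding or in inflamed skin, keratinocytes outside the basal layer also make keratins 6 and 16 and the calcium-binding proteins S100A8 and S100A9.

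Members were rare in every library. They were 9 of 1499 kept barcodes in pretreatment (0.600%, exact Clopper-Pearson interval 0.275 to 1.14%), 12 of 8916 in continuous (0.135%, 0.0696 to 0.235%), 14 of 24132 in acute (0.0580%, 0.0317 to 0.0973%), 23 of 9180 in chronic (0.251%, 0.159 to 0.376%), 8 of 22123 in irradiated (0.0362%, 0.0156 to 0.0712%) and 11 of 17709 in normal (0.0621%, 0.0310 to 0.111%). The intervals of acute, irradiated and normal overlapped, and the interval of pretreatment lay above those of the others except chronic. The share also depends on the other cells of a library: leukocytes (barcodes with Ptprc) were 302 in pretreatment and 5358 in continuous. Beside the basal and the follicle or wound gates described below, the 9 members of pretreatment stood with 33 and 31 barcodes. The 12 of continuous stood with 84 and 184, and the 8 of irradiated with 60 and 151. The gate counts UMIs and so depends on depth, which differed: the median member held 14570 gene UMIs in pretreatment, 10430.5 in continuous, 4318.5 in acute, 14017 in chronic, 5255 in irradiated and 2150 in normal. When kept barcodes with at least 1000 UMIs were thinned to 1000 and shallower ones dropped, 41 members were left. The shares of continuous and chronic, now of 8407 and 8451 barcodes, moved below their intervals, to 0.0595% and 0.142%.

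**Figure D1:**
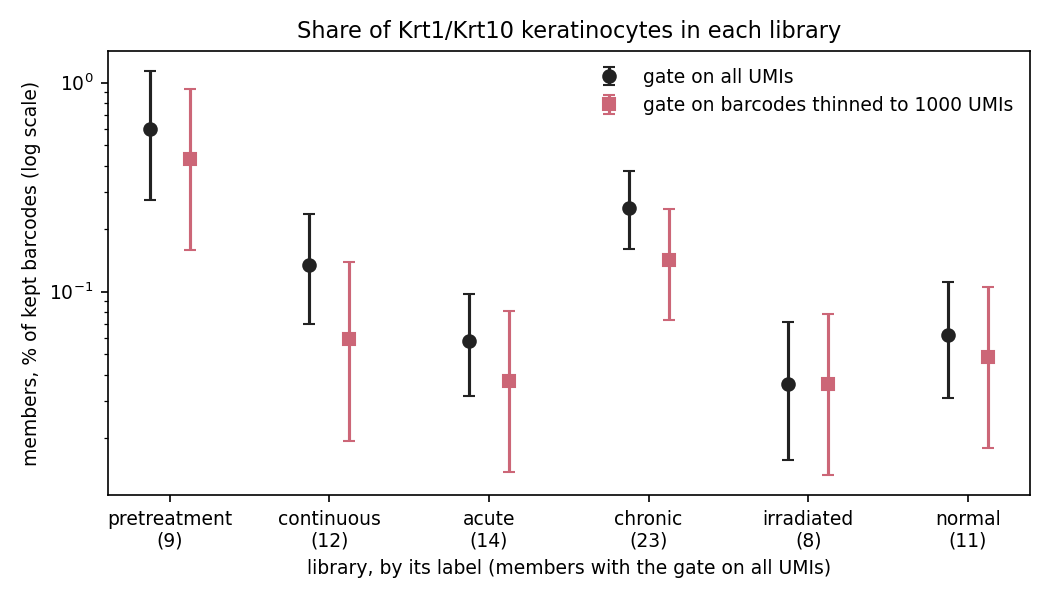
Members as a percentage of kept barcodes (log scale) in each library, with 95% Clopper-Pearson intervals. Circles show the gate on all UMIs. Squares show the gate on barcodes thinned to 1000 UMIs, as a percentage of kept barcodes with at least 1000 UMIs. Pretreatment had the highest share under both gates (0.600% and 0.430%).

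At the threshold, 9 members had exactly 3 UMIs of Krt1 and Krt10 together, 5 had 4, and 63 had 5 or more. Just outside, 26 barcodes that met every other criterion had 2 such UMIs and 108 had 1. Measured per 1000000 gene UMIs (CPM), Krt1 and Krt10 together ranged from 34.1 to 57370 CPM among members, with a median of 2992, and 20 members were under 1000 CPM. Those at the low end included very deep barcodes: 8 members held over 50000 UMIs, and the deepest, a chronic one with 88094, had 3 Krt10 and 0 Krt1 UMIs. Fibroblast-like barcodes of the same libraries were used as a measure of free RNA. They had at least 3 UMIs of Col1a2 and 0 of Ptprc. They also had at most 2 of Krt1 and Krt10 together and at most 2 of Krt14 and Krt5 together. Krt1 and Krt10 came to 8.13 to 20.7 CPM in them, a level that these limits in part set. The limits may also lower their levels of other keratins, given below.

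Members carried keratinocyte markers that the gate did not use. The 7 keratinocyte markers that the gate did not use (among them Sfn, Perp, Dsp and Lgals7) summed to 16526 to 23015 CPM in members of the 6 libraries. In basal keratinocytes, selected with at least 3 UMIs of Krt14 and Krt5 and at most 2 of Krt1 and Krt10, they summed to 5445 to 13581 CPM. Lgals7 alone was at 14425 CPM in members after thinning, so these sums may rest largely on it. They do not show the markers to be higher as a set. Krt15 and Trp63, also genes of keratinocytes, were called lower in members than in the basal gate, as given below. Fibroblast markers summed to 121 to 440 CPM in members, against 450 to 950 CPM in the basal gate. Both gates set the same limits in UMIs, 0 of Ptprc and at most 2 of Col1a2. Members were deeper than basal barcodes, so these limits were stricter on them per UMI. Lower fibroblast or leukocyte RNA in members may thus in part be set by the selection. Markers of other cells were present at varied levels. The 12 T or NK cell markers summed to 32.9 to 151 CPM in members, against 11.8 to 162 CPM in the basal gate, and were higher in members in 5 of 6 libraries, while 6 of them, Cd3d, Cd3e and Cd3g included, were at 0 in all members. The 12 dendritic or Langerhans markers summed to 212 to 1542 CPM in members, against 301 to 2623 CPM in the basal gate, with 3 at 0 in members. Endothelial markers summed to 25.9 to 51.7 CPM in members, against 23.5 to 347 CPM in the basal gate, with 5 of 10, among them Cdh5 and Kdr, at 0 in members. Of the melanocyte markers 6 of 7 and of the Merkel markers 5 of 6 were at 0 in members. Macrophage markers summed to 803 to 5808 CPM in members, against 2837 to 8504 CPM in the basal gate; in continuous they were higher in members, and in the other 5 libraries lower. The part of RNA from these cells in the results was not tested. A name of differentiating cells rests on the gate genes: 61 of 77 members also had at least 3 UMIs of Krt17, Krt79 and Krt6a together, the criterion of the follicle or wound gate described below. These were 5 of 9 members in pretreatment, 6 of 12 in continuous, 13 of 14 in acute, 21 of 23 in chronic, 8 of 8 in irradiated and 8 of 11 in normal. Scrublet, which scores barcodes for likeness to simulated doublets, removed 0 members, but it marked under 0.5% of barcodes in 4 libraries.

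Krt1 and Krt10, which pair in 1 filament, were not present in a fixed ratio. Summed over members, Krt10 made up 62.3% of the UMIs of both genes in pretreatment, 45.1% in continuous, 14.5% in acute, 20.1% in chronic, 24.4% in irradiated and 52.5% in normal. By member the order was another: the median share of Krt10 was 58.6% in pretreatment, 57.5% in continuous, 18.75% in acute, 8.33% in chronic, 67.5% in irradiated and 46.2% in normal. In irradiated 5 of 8 members had more Krt10 than Krt1, and 1 member held 64.5% of the Krt1 UMIs of that library. Acute and chronic were low by both measures. By member, 45 had more Krt1 and 32 more Krt10; 15 had 0 Krt10 and 12 had 0 Krt1. Krt10 reached 4119 CPM (3850 to 4401) in pretreatment, 1242 (1107 to 1389) in continuous, 623 (478 to 799) in acute, 518 (458 to 582) in chronic, 614 (436 to 839) in irradiated and 7667 (6819 to 8592) in normal. Single members weighed heavily in these sums: 1 member held 70.5% of the Krt10 UMIs of chronic, where the median member was at 71.3 CPM, and 1 held 57.4% of those of normal. The median member had 886 CPM in irradiated, against 1668 CPM in normal. Krt1 lay between 1509 CPM in continuous and 6942 CPM in normal.

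**Figure D2:**
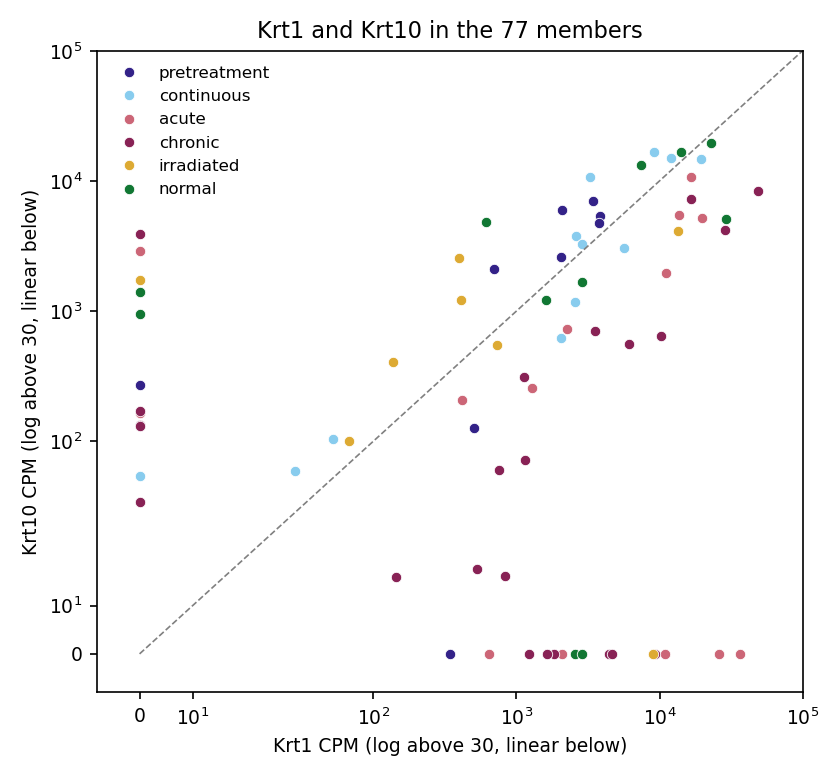
Krt1 (x axis) and Krt10 (y axis) CPM of each of the 77 members, coloured by library, with both axes logarithmic above 30 and linear below; the dashed line marks equal levels. The 15 members along the lower edge had 0 Krt10 UMIs and the 12 along the left edge 0 Krt1 UMIs.

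Krtdap, a secreted protein of differentiating keratinocytes, was found in 70 of 77 members, although the gate could be met without it. Its level was 6037 CPM (5711 to 6377) in pretreatment, 3292 (3070 to 3526) in continuous, 1860 (1602 to 2148) in acute, 2783 (2644 to 2928) in chronic, 2738 (2346 to 3176) in irradiated and 7486 (6648 to 8401) in normal. In irradiated 1 member held 62.6% of the Krtdap UMIs and in normal 1 held 66.8%, and the median members were at 2435 and 3286 CPM. Krt5 and Krt14 together made up a median of 59.4% of the UMIs of the 4 keratins Krt1, Krt10, Krt5 and Krt14 per member. The median of this share ran from 33.4% in continuous to 84.0% in chronic, and 5 members had none of Krt5 and Krt14. The gate required UMIs of Krt14, Krt5 and Krtdap together, which 101 of the 129 barcodes that met the Krt1 and Krt10 criterion had. The presence of these genes in members was thus in part set by the selection.

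The share of members with UMIs of certain other keratins differed by library. Members were not divided into groups by them, and some held both kinds: 1 pretreatment member had 4 Krt77 and 25 Krt16 UMIs. Krt77, a keratin of suprabasal mouse epidermis, had UMIs in 7 of 9 members in pretreatment, 6 of 12 in continuous and 1 of 8 in irradiated, against 0 of 14 in acute, 0 of 23 in chronic and 0 of 11 in normal. By counting error alone these 0 counts allow up to 21.4% of acute, 13.0% of chronic and 27.3% of normal members with a UMI. Its level was 1175 CPM in pretreatment, 80.9 CPM in continuous and 62.9 CPM in irradiated. The chronic members, with 0 of 23, were about as deep as those of pretreatment. Krt77 was at 0.203% of fibroblast-like barcodes in pretreatment and 0.216% in continuous, whose median depths were 11295 and 8930.5 UMIs.

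Krt6a and Krt16, keratins of wounded and hyperproliferative epidermis and of the hair follicle, showed the opposite order. At least 1 UMI of either was found in all 14 acute, 23 chronic and 8 irradiated members and in 10 of 11 normal ones, against 5 of 9 in pretreatment and 5 of 12 in continuous. After thinning to 1000 UMIs these counts were 12 of 12 in acute, 20 of 23 in chronic, 6 of 8 in irradiated, 7 of 9 in normal, 1 of 9 in pretreatment and 3 of 12 in continuous. The share of fibroblast-like barcodes with such a UMI was 6.39% in acute, 9.26% in chronic, 7.31% in irradiated, 4.40% in normal, 1.01% in pretreatment and 4.76% in continuous, at median depths of 3570 to 11295 UMIs. Krt16 averaged 207 CPM in pretreatment, 352 in continuous, 3117 in acute, 2091 in chronic, 1699 in irradiated and 8237 in normal. The 4 libraries with antibody tags were all above the 2 without them, so the label, the tagging and anything else that differs between these libraries cannot be told apart.

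Krt79, a keratin of the upper hair follicle in mice, reached 3 UMIs in 23 members: 4 in continuous, 4 in acute, 7 in chronic, 5 in irradiated, 3 in normal and 0 in pretreatment. Its highest level in a member was 20794 CPM, in acute, and 0.616% to 4.76% of fibroblast-like barcodes had a UMI. Krt77 UMIs and at least 3 Krt79 UMIs occurred together in 4 members. Summed over members, Krt79 was at 0 CPM in pretreatment, 4534 in continuous, 2091 in acute, 1350 in chronic, 4311 in irradiated and 725 in normal. Follicle or wound keratinocytes, a gate with at least 3 UMIs of Krt17, Krt79 and Krt6a in place of Krt1 and Krt10, held it at 887, 1183, 306, 794, 763 and 576 CPM in the same order. Members were thus lower in pretreatment and higher in every other library. In irradiated 1 member held 84.3% of the Krt79 UMIs.

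**Figure D3:**
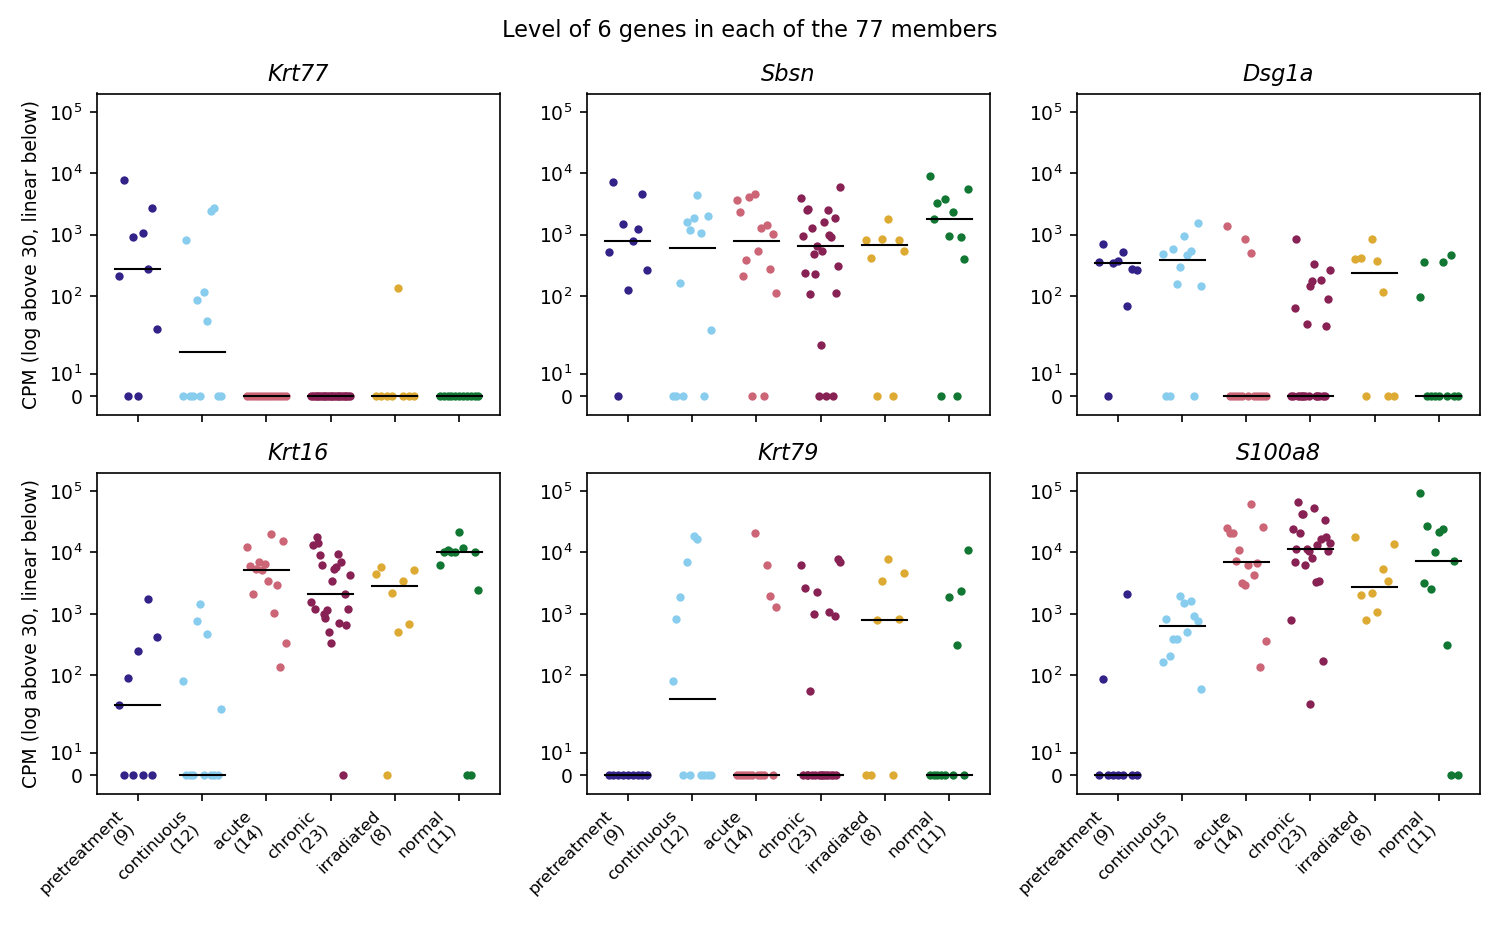
CPM of Krt77, Sbsn, Dsg1a, Krt16, Krt79 and S100a8 in each of the 77 members (dots) by library, on an axis logarithmic above 30 and linear below; black lines mark medians and numbers in brackets count members. Krt77 is seen in pretreatment and continuous and in 1 irradiated member, whereas Krt16 is above 100 CPM in every acute member.

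S100a8 and S100a9, which form calprotectin and are made by neutrophils and by activated keratinocytes, were among the most abundant transcripts of members. S100a8 was at 150 CPM in pretreatment, 477 in continuous, 7078 in acute, 11909 in chronic, 3745 in irradiated and 31006 in normal, where 1 member held 78.4% of its UMIs. At least 10 UMIs of both together were found in 1 of 9 pretreatment, 8 of 12 continuous, 13 of 14 acute, 21 of 23 chronic, 6 of 8 irradiated and 7 of 11 normal members. These transcripts also occur as free RNA: S100a8 was at 2.93 CPM in fibroblast-like barcodes of pretreatment, 368 in continuous, 1248 in acute, 280 in chronic, 1209 in irradiated and 1311 in normal, with a UMI in 3.65% to 81.8% of them. Members of acute, chronic, irradiated and normal were above that level, and continuous was close to it. Irradiated members, at 3745 CPM, were below the basal gate (5239 CPM) and the follicle or wound gate (4157 CPM). Continuous members, at 477 CPM, were also below both (1769 and 2119 CPM). Members of pretreatment, acute, chronic and normal were above both gates. In pretreatment 2 of 9 members had a UMI of S100a8, and 1 of them held 31 of 32.

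The other 9 neutrophil markers, such as Csf3r, Cxcr2, Retnlg and Il1b, were counted beside S100a8, although not all of them are limited to neutrophils. They held 69 UMIs in acute, 161 in chronic, 123 in irradiated and 11 in normal members, beside 704, 6397, 238 and 1197 UMIs of S100a8. In leukocytes (barcodes with Ptprc) of the same 4 libraries these 9 markers held 189571, 175503, 351338 and 129336 UMIs, beside 165205, 274023, 319771 and 196403 of S100a8. Relative to leukocytes, S100a8 was thus in excess of the other neutrophil markers in members of these 4 libraries. The source of this S100a8 RNA was not tested. In normal 1 member held 938 of the 1197 S100a8 UMIs. The follicle or wound gate also showed an excess, with 4420, 9439, 4199 and 1486 UMIs of S100a8 in acute, chronic, irradiated and normal, beside 875, 319, 940 and 290 of the 9 markers. So did the basal gate, with 521, 200, 647 and 647 UMIs of S100a8 beside 306, 69, 548 and 287. Over the 6 libraries S100a8 did not pass the test against the basal gate (log2 difference 1.45 ± 1.08, SE, adjusted p = 0.379 by edgeR's quasi-likelihood test) or against the follicle or wound gate (1.10 ± 0.87, adjusted p = 0.623).

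Transcripts of late differentiation were found in few members. Loricrin (Lor) had 91 UMIs in all members and 85 of them lay in 1 normal member, which also held 22 of the 26 filaggrin (Flg) UMIs of that library. The same member held 15 of the 17 Ivl UMIs of normal. A further 14 Flg UMIs came from 1 acute member. In all, 7 of 77 members had a UMI of Lor or Flg and 3 had at least 3. Involucrin (Ivl), a scaffold of the cornified envelope, had 37 UMIs in 11 members. Krt2, a keratin of the upper spinous layer, had 1 UMI. Lor and Flg UMIs were found in 0 of 23 chronic members, which were among the deepest. By counting error that allows up to 13.0% of members with such a UMI (3 divided by the number of members), and it sets no limit on members that make the transcripts.

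Mki67, a marker of proliferating cells, had UMIs in 11 members, 7 of them chronic, 2 continuous and 2 acute. Of its 112 UMIs, 47 lay in the deepest chronic member, the one with 3 UMIs of Krt10 and 0 of Krt1. Its level was 93.4 CPM over all members, against 102 CPM in the basal gate (log2 difference −0.77 ± 0.42, SE, adjusted p = 0.190 by edgeR) and 70.7 CPM in the follicle or wound gate (0.14 ± 0.50, adjusted p = 0.947). The direction of the second difference turned without the chronic library (−0.62). After thinning to 1000 UMIs, Mki67 or Top2a had a UMI in 2 of 23 chronic and 1 of 12 continuous members and in 0 of the other libraries, while 1.04% to 3.97% of fibroblast-like barcodes had one. The members' shares were 8.70% in chronic and 8.33% in continuous. They were 16.7% and 14.3% in the basal gate and 7.18% and 10.2% in the follicle or wound gate.

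To find which genes separate members from other keratinocytes, UMIs were summed per library and compared within each library between 77 members and 365 basal keratinocytes. Each library gave 1 sum per class, so n was 6 pairs, and p-values were adjusted over all genes tested. Deep members weighed most in these sums and in the CPM values drawn from them. In continuous, 1 member gave 74305 of 247264 UMIs, and it had 4 UMIs of Krt10 and 0 of Krt1. In acute, 1 member gave 36200 of 99459 UMIs, with 6 of Krt10 and 0 of Krt1. Members were higher for 233 of 2135 genes (10.9%) and lower for 245 (11.5%) at an adjusted p under 0.05, leaving out the 10 genes that define the gates. The sources used here do not name separate animals, so the p-values measure the spread between libraries. Depth differed with the class: the median basal barcode held 1324 to 3726 UMIs, fewer than the median member in every library. Without the chronic library 121 genes were higher and 128 lower, and without acute 142 were lower. Without barcodes over 50000 UMIs 228 were higher and 181 lower. After thinning barcodes to 1000 UMIs and dropping shallower ones, 288 genes could be tested, 24 higher and 29 lower.

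Of 20 listed genes of early suprabasal differentiation 8 could be tested and all 8 were higher in members, with a median log2 difference of 2.59, against −0.05 over all genes tested. A gene could be tested on the strength of its member sums alone, so that count and median were in part fixed by the filter on low counts, here and in the lists that follow. Calm4, a skin calmodulin-like protein that is not on that list and was named for the size of its difference, was at 1448 CPM in members of pretreatment, 922 in continuous, 463 in acute, 663 in chronic, 645 in irradiated and 5362 in normal, against 26.7, 20.3, 16.3, 0, 8.10 and 26.4 CPM in the basal gate of the same libraries. The 2 classes did not overlap, and normal members stood highest. The log2 difference of Calm4 was 6.39 ± 0.37 (SE, adjusted p = 5.05e-10 by edgeR, higher in 6 of 6 libraries).

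Suprabasin (Sbsn), a secreted protein named for the suprabasal layers, was at 1693, 1092, 704, 726, 1054 and 3678 CPM in members of pretreatment, continuous, acute, chronic, irradiated and normal, against 111, 40.6, 73.2, 129, 56.7 and 125 CPM in the basal gate. Every member sum was above every basal one, by a log2 difference of 4.05 ± 0.30 (adjusted p = 2.05e-08 by edgeR). Single members weighed heavily in the Sbsn sums: 1 held 79.1% of the UMIs of irradiated and 1 held 66.2% of those of normal. The median members were at 683 CPM in irradiated and 1787 CPM in normal. Dermokine (Dmkn), secreted by the same layers, differed by 3.12 ± 0.27 (adjusted p = 1.69e-07). Desmoglein 1 (Dsg1a), the adhesion molecule of upper-layer desmosomes, was at 329, 231, 101, 81.9, 252 and 181 CPM in members in the same order of libraries, against 68.6, 27.1, 0, 5.89, 0 and 13.2 CPM in the basal gate. Its difference was 3.38 ± 0.40 (adjusted p = 1.26e-05), and 1 member held 68.75% of the Dsg1a UMIs of irradiated. Reads of Dsg1a may be shared with its near-identical copies Dsg1b and Dsg1c. The other genes called from this list were Ly6d, Lgals7, Lypd3, Serpinb5 and Sfn, and Ly6d lost its call without acute (adjusted p = 0.0510).

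**Figure D4:**
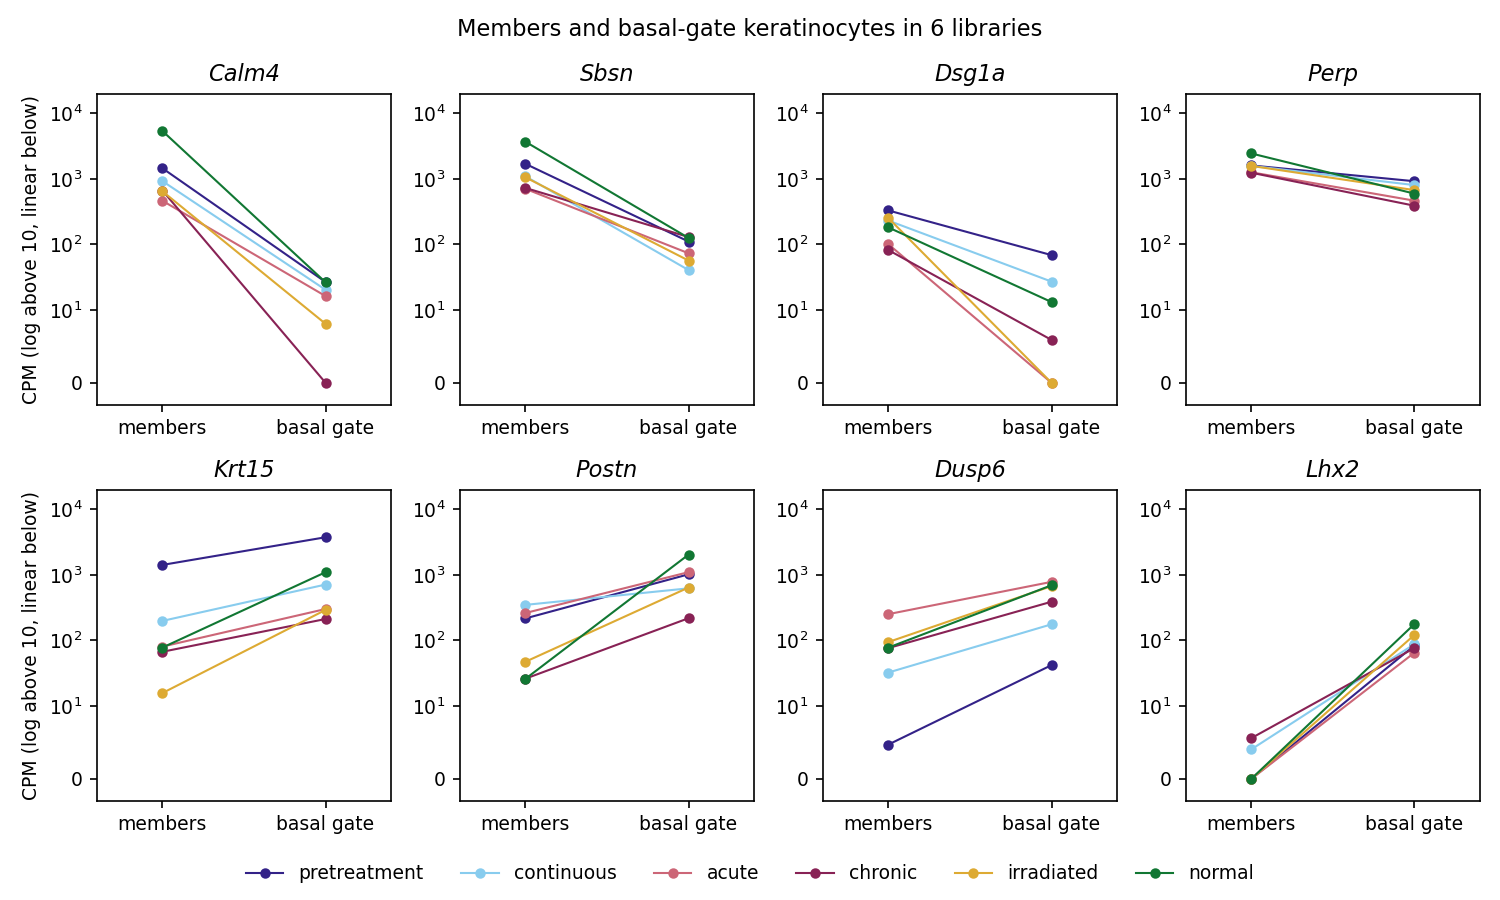
CPM of 8 genes in members (left of each panel) and in the basal gate (right), with 1 line per library and an axis logarithmic above 10 and linear below. Calm4, Sbsn, Dsg1a and Perp were higher and Krt15, Postn, Dusp6 and Lhx2 lower in members of all 6 libraries.

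Outside that list, the largest differences also included Cst6, cystatin M/E, an inhibitor of cysteine proteases in the cornifying layers. Its level varied widely among members: 240 CPM in pretreatment, 11482 in continuous, 221 in acute, 771 in chronic, 6545 in irradiated and 1243 in normal, against 0 to 10.1 CPM in the basal gate. The log2 difference was 8.97 ± 0.47 (adjusted p = 1.83e-10 by edgeR). Ly6g6c differed by 6.23 ± 0.38, Fam25c by 5.31 ± 0.28 and Pdzk1ip1 by 3.52 ± 0.31. Crabp2, which binds retinoic acid in the cell, differed by 3.71 ± 0.42, and the antimicrobial beta-defensin Defb6 by 4.55 ± 1.02 (adjusted p = 0.0314). Defb6 lost its call when continuous, acute, chronic, irradiated or normal was left out (adjusted p = 0.0619 to 0.0971). Against the follicle or wound gate, Cst6 and Defb6 were tested and not called.

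Krt16 differed by 3.88 ± 0.28 (adjusted p = 4.68e-09 by edgeR, 6 of 6 libraries), but the basal gate admits few barcodes with Krt6a, the usual partner of Krt16, so this contrast was in part set by the selection. Of 17 tested genes of wound and activation, 6 were higher and 1 lower, with a median of −0.11. Stfa3, a stefin that inhibits cysteine proteases, was at 2241 CPM in members, against 253 CPM in the basal gate (3.02 ± 0.26), and Stfa1 differed by 2.90 ± 0.38; the stefin genes are near-identical copies that counting can mix up. Lcn2, the siderophore-binding lipocalin 2, was lower, by −0.99 ± 0.27 (adjusted p = 0.0162), a call lost without continuous or irradiated (0.0564 and 0.0537).

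Of the granular and cornified genes, 56 were among the features and 39 had UMIs in members, but only 5 could be tested. Of these 4 were higher: Cst6, Sprr1a, Asprv1 and Evpl, with a median of 3.01 over the 5. Against the follicle or wound gate only Evpl of these 4 was called. Asprv1, the protease that trims profilaggrin, was at 1502 CPM in normal members and 23.5 to 362 CPM in the other 5 libraries, against 0 to 113 CPM in the basal gate (3.01 ± 0.40, adjusted p = 6.46e-05 by edgeR). Envoplakin (Evpl), which ties desmosomes to the cornified envelope, differed by 1.98 ± 0.31. Among genes of the lipid barrier 2 of 4 tested were higher, the fatty acid-binding protein Fabp5 (2.44 ± 0.40) and Plbd1 (1.42 ± 0.30).

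Desmosome and junction genes were higher in 8 of 12 tested, with a median of 0.80. Perp, a membrane protein of desmosomes, was at 1599, 1573, 1257, 1238, 1573 and 2435 CPM in members of pretreatment, continuous, acute, chronic, irradiated and normal, against 919, 802, 464, 388, 672 and 594 CPM in the basal gate. The lowest member sum was above the highest basal one, and the log2 difference was 1.48 ± 0.21 (adjusted p = 8.48e-05 by edgeR). Desmoplakin (Dsp), which anchors keratins to desmosomes, differed by 1.39 ± 0.21, plakophilin 1 (Pkp1) by 1.38 ± 0.22 and plakoglobin (Jup) by 1.36 ± 0.20. This count was 4 of 12 without the chronic library and 5 of 12 without irradiated.

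The basal layer list moved the other way: 9 of 12 tested genes were lower, 0 were higher, and the median was −0.995. Krt15, a keratin of basal and follicle stem cells, was at 1415, 198, 80.4, 67.0, 15.7 and 77.7 CPM in members of pretreatment, continuous, acute, chronic, irradiated and normal, against 3739, 710, 301, 212, 291 and 1095 CPM in the basal gate. The order held within each library but the 2 ranges overlapped, and pretreatment was highest in both classes. The log2 difference was −1.91 ± 0.28 (adjusted p = 0.000120 by edgeR). The other 8 genes called were Dst, Plec, Col17a1 and Itga6 of the hemidesmosome, the integrin chain Itgb1, the D-type cyclin Ccnd2, the matrix protein Postn and Trp63, the transcription factor of stratified epithelia.

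Lhx2, a transcription factor of hair follicle stem cells, was nearly missing from members, with 4 UMIs in all of them, against 111 in the basal gate (log2 difference −4.40 ± 0.51, adjusted p = 5.86e-06 by edgeR, lower in 6 of 6 libraries). Dusp6, a phosphatase induced by and acting on the kinase ERK, was at 4.70, 32.4, 251, 76.3, 94.4 and 77.7 CPM in members of pretreatment, continuous, acute, chronic, irradiated and normal, against 41.9, 176, 781, 388, 672 and 693 CPM in the basal gate (−2.24 ± 0.25). Both classes were lowest in pretreatment and highest in acute. Periostin (Postn) and Sparc, matrix proteins that bind collagen, differed by −2.35 ± 0.44 and −2.41 ± 0.43, and the collagen chaperone Serpinh1 by −2.00 ± 0.32. These 3 genes are also made by fibroblasts, whose markers were higher in the basal gate as given above. The Col1a2 limit was also stricter per UMI on members, as given above. The part of fibroblast RNA and of this limit in these differences was not tested.

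Transcription factors of differentiation and Notch genes were called in both directions, 5 higher and 6 lower of 23. Ehf (2.24 ± 0.48), Ovol1 (1.29 ± 0.31), Klf3 (1.25 ± 0.31), Cebpa (1.17 ± 0.26) and Klf4 (0.84 ± 0.23), regulators that promote the exit from the basal state or terminal differentiation, were higher. Nfib (−1.60 ± 0.23), the vitamin D receptor Vdr (−1.68 ± 0.36), Notch1, its ligand Jag1, its nuclear partner Rbpj, and Id3 were lower. The number lower was 3 without acute or without irradiated. Klf4 lost its call without the irradiated library (adjusted p = 0.0602 by edgeR).

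Cytokines and chemokines were lower in 8 of 16 tested and higher in 0, with a median of −0.91. Cxcl1, which attracts neutrophils, was at 96.8 CPM in members, against 393 CPM in the basal gate (−1.65 ± 0.24, adjusted p = 0.000110 by edgeR), and Ccl2, which attracts monocytes, at 38.4 CPM in members, against 174 CPM in the basal gate (−1.81 ± 0.35). Il1b, Icam1, Cxcl2, Cxcl14, Ptgs2 and Tgfb1 were the others. Some of these are also made by leukocytes: the 9 neutrophil markers other than S100a8 and S100a9, of which Il1b is one, summed to 18.8 to 1935 CPM in members, against 15.2 to 4437 CPM in the basal gate. Red cell markers also differed, at 10.1 to 553 CPM in members, against 145 to 8194 CPM in the basal gate. The Ptprc limit was also stricter per UMI on members. The part of such RNA and of this limit in these differences was not tested.

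Of iron-handling genes, 5 of 7 tested were lower and 0 higher, with a median of −0.99. Ferritin heavy chain (Fth1) was at 1180, 663, 3901, 2359, 3776 and 1425 CPM in members of pretreatment, continuous, acute, chronic, irradiated and normal, against 1986, 1938, 5294, 5339, 8008 and 6223 CPM in the basal gate. It was lower in 6 of 6 libraries (−1.04 ± 0.22, adjusted p = 0.00239 by edgeR), as was the light chain Ftl1 (−1.09 ± 0.24). Hmox1, which degrades haem, the metalloreductase Steap4 and Lcn2 were also called. The transferrin receptor Tfrc, which takes up iron, was at 112 CPM in members and 105 CPM in the basal gate (0.35 ± 0.27, adjusted p = 0.344). Against the follicle or wound gate only Lcn2 of 12 tested iron genes was called, a call lost without continuous or irradiated (adjusted p = 0.0686 and 0.0902), and Fth1 differed by −0.38 ± 0.30 (adjusted p = 0.606). Red cell and macrophage markers, whose levels are given above, were lower in members than in the basal gate in 6 and 5 of 6 libraries, and their part in the iron genes was not tested.

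Oxidative stress genes were higher in 1 of 16 (Prdx5, a peroxiredoxin, 1.83 ± 0.26) and lower in 5, among them the metallothionein Mt2 (−1.73 ± 0.23). The number lower was 3 without chronic or without irradiated. Immediate early and AP-1 genes were lower in 8 of 24 and higher in 0, among them Fosb (−1.12 ± 0.23) and Socs3 (−1.01 ± 0.32), whose call was lost without acute, chronic, irradiated or normal (adjusted p = 0.0635 to 0.0972). That count fell to 1 without acute, 2 without chronic, 2 without normal and 4 without irradiated, and was 12 without continuous. The share of mitochondrial UMIs moved with the class: its median was 4.45, 5.10, 7.13, 3.19, 6.12 and 3.77% in members of pretreatment, continuous, acute, chronic, irradiated and normal, against 4.16, 6.62, 7.39, 5.85, 7.31 and 7.08% in the basal gate. With barcodes of at most 10% mitochondrial UMIs, 5 of 23 immediate early genes were lower. Jun was at 1518 CPM in members and 1968 CPM in the basal gate (−0.54 ± 0.26, adjusted p = 0.132 by edgeR); without continuous its adjusted p was 0.0124. Vegfa was at 60.1 CPM in members and 120 CPM in the basal gate (−0.64 ± 0.38, adjusted p = 0.222). Cdkn1a, the cell cycle inhibitor p21, was higher by 0.64 ± 0.20 (adjusted p = 0.0255), a call lost without continuous, acute, chronic or irradiated (adjusted p = 0.0514 to 0.0717) and after thinning, where the log2 difference was −0.041.

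Members were then set against 803 follicle or wound keratinocytes, which had higher depth than the basal gate (medians of 3277 to 8603.5 UMIs). Here members were higher for 77 of 4749 genes tested (1.62%) and lower for 71 (1.5%). Without irradiated 40 genes were higher and 23 lower, without chronic 21 were lower, without normal 154 were higher, and without pretreatment 116 were lower.

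Part of the suprabasal and cornification genes were called higher in members here too. Of the early suprabasal list 6 of 12 tested were higher and 0 lower, with a median of 1.51, against −0.05 over all genes tested. Calm4, which is not on the list, was at 1448, 922, 463, 663, 645 and 5362 CPM in members of pretreatment, continuous, acute, chronic, irradiated and normal, against 13.7, 71.3, 26.4, 59.8, 48.5 and 48.6 CPM in the follicle or wound gate (4.74 ± 0.57, adjusted p = 0.00619 by edgeR). The classes did not overlap for Calm4. Dsg1a differed by 2.95 ± 0.32 and Endou, an endoribonuclease, by 2.95 ± 0.54. Dmkn (1.64 ± 0.35), Ly6d (1.56 ± 0.23), Lypd3 and Lgals7 were called as well. Endou lost its call without pretreatment or irradiated (adjusted p = 0.0679 and 0.0923), and Dmkn without irradiated or normal (0.110 and 0.0833). Sbsn was at 1084 CPM in members and 374 CPM in the follicle or wound gate (2.11 ± 0.50), with an adjusted p of 0.0823, and at 0.000321 without the normal library. Without irradiated, 3 of 12 genes of the list were called.

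Granular and cornified genes were higher in 3 of 21 tested, with a median of 1.53. Casp14, the caspase that acts in cornification, was at 32.9, 48.5, 241, 98.7, 78.7 and 648 CPM in members of pretreatment, continuous, acute, chronic, irradiated and normal, against 0, 1.63, 8.80, 12.2, 22.8 and 0 CPM in the follicle or wound gate. The lowest member sum exceeded the highest of the other class, and the log2 difference was 4.27 ± 0.67 (adjusted p = 0.0116 by edgeR). Evpl (2.13 ± 0.28) and Ppl, periplakin (1.61 ± 0.28), were the others. Without normal 5 genes of the list were called. Ivl did not pass (0.31 ± 0.91, adjusted p = 0.932), and its difference was −0.79 without normal.

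Among the lipid barrier genes 2 of 14 were higher, Plbd1 and Abca12, the transporter that loads lipids into lamellar granules (1.83 ± 0.29). Gltp, which transfers glycolipids between membranes, differed by 2.49 ± 0.26, the membrane serine protease Tmprss4 by 3.26 ± 0.34, the acyl-CoA thioesterase Them5 by 3.13 ± 0.42, and Mall by 2.73 ± 0.32. Dsp (1.08 ± 0.19), Perp (0.96 ± 0.18), Pkp1 (0.95 ± 0.22), Jup and Nectin4 were higher and Dsg2, the desmoglein of lower layers, was lower (−1.52 ± 0.40), which made 5 higher and 1 lower of 21 junction genes. Without irradiated 2 were higher and without continuous 3. Dsg2 lost its call without pretreatment, continuous, acute or irradiated, Jup with any library left out but chronic, and Pkp1 without irradiated (adjusted p = 0.119).

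Of the 32 differentiation transcription factors and Notch genes tested here, 5 were higher and 2 lower, with a median of 0.13. Grhl3, a factor of barrier formation, was at 79.9, 36.4, 101, 57.7, 252 and 130 CPM in members of pretreatment, continuous, acute, chronic, irradiated and normal, against 0, 13.8, 60.5, 40.0, 58.4 and 36.4 CPM in the follicle or wound gate (1.71 ± 0.41, adjusted p = 0.0346 by edgeR). It was higher within every library, although the 2 ranges overlapped. Zfp750 (1.52 ± 0.36), Ehf (1.49 ± 0.28), Ovol1 (1.04 ± 0.26) and Klf4 (0.87 ± 0.22) were called too, while Jag1 and Nfib were lower. With 1 library left out, 1 factor was higher without irradiated, 2 without pretreatment and 3 without acute or normal, and Ehf kept its call each time. Grhl3 lost its call without irradiated or normal (adjusted p = 0.178 and 0.0897), Klf4 without pretreatment or irradiated (0.0666 and 0.199), Nfib without chronic or irradiated (0.0702 and 0.117), and Zfp750 without pretreatment, acute or irradiated (0.0505 to 0.0604). Ovol1 lost it with any library left out but continuous (0.0618 to 0.101) and Jag1 with any left out but pretreatment (0.0619 to 0.178).

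Basement membrane and integrin genes were lower in members than in follicle or wound keratinocytes, in 8 of 26 tested with 0 higher and a median of −0.98. Among those called were the laminin chains Lama3 and Lamb3, the integrin chains Itga6, Itgb4, Itgb1 and Itga2, and the follicle factor Sox9. Itga2 lost its call without chronic or irradiated (adjusted p = 0.144 and 0.111). Without irradiated 3 of 26 were called, without chronic 4 of 25 and without acute 5 of 25.

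Further genes lower in members were Mmp13, a collagenase of migrating keratinocytes (−2.64 ± 0.42), Pthlh, parathyroid hormone-related protein (−2.54 ± 0.51), the basement membrane collagen Col4a1 (−2.84 ± 0.45), Fgfr1, a receptor of fibroblast growth factors (−2.15 ± 0.47), and Dusp6 (−1.92 ± 0.30). Fgfr1 lost its call without chronic or irradiated (adjusted p = 0.126 and 0.0658) and Pthlh without chronic (0.0937). Lhx2 had 4 UMIs in members and 325 in the follicle or wound gate (−3.67 ± 0.57). Krt16 did not pass here (1.48 ± 0.47, adjusted p = 0.180 by edgeR), while its adjusted p was 0.0189 without continuous.

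**Figure D5:**
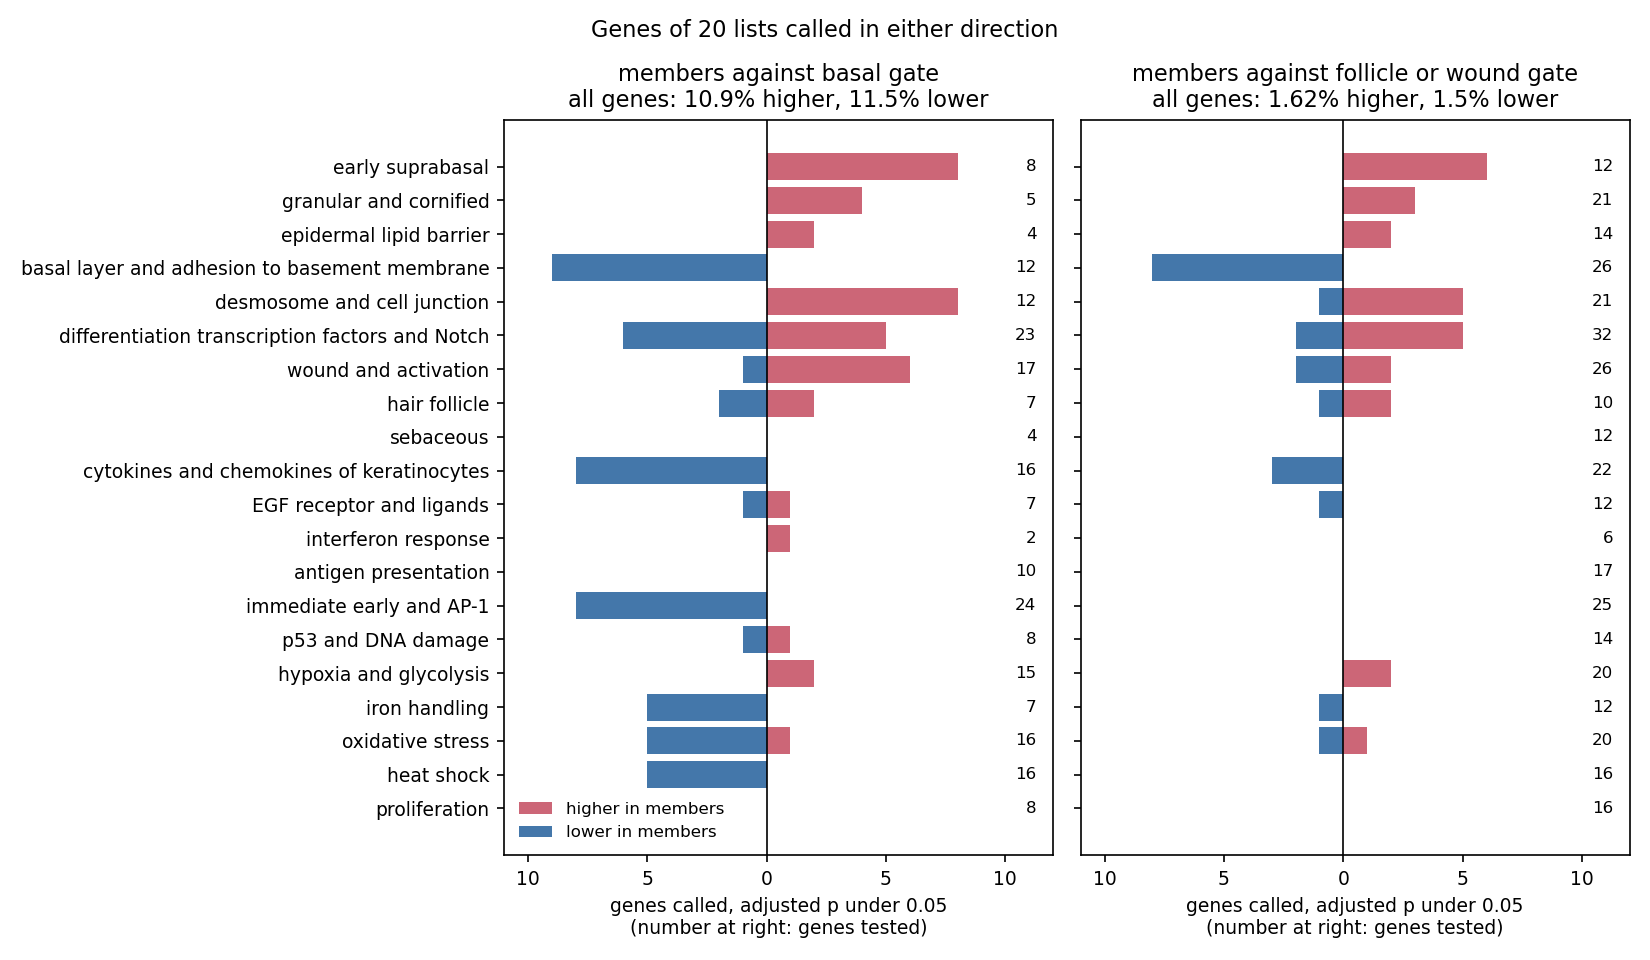
Number of genes of each of 20 lists that were higher (red, right of 0) or lower (blue, left of 0) in members at an adjusted p under 0.05 by edgeR, against the basal gate (left panel) and the follicle or wound gate (right panel), with the number tested at the right edge. All 8 tested early suprabasal genes were higher against the basal gate and 6 of 12 against the follicle or wound gate, while 9 of 12 and 8 of 26 basal layer genes were lower.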

How the data were processed

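Droplet 3′ single-cell RNA libraries of 6 labels were measured, 1 library each. Per the file headers the authors' counts came from Cell Ranger 6.0.0, as UMIs per gene and barcode with no normalization; per the submitters' processing notes Cell Ranger, Seurat 5.0.1 and the pig build Sscrofa11.1 were used, although all 32285 deposited gene features are mouse genes. The mouse build is not given in the sources used here. The deposited matrices held 88337 barcodes, each with at least 500 gene UMIs.

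Barcodes were gated with Python 3.11.15 (scanpy 1.11.5, scipy 1.17.1). Basal keratinocytes had at least 3 UMIs of Krt14 and Krt5, at most 2 of Krt1 and Krt10 and at most 2 of Krt17, Krt79 and Krt6a; follicle or wound keratinocytes had at least 3 of the last 3 genes. UMIs were summed per library and class and tested with edgeR 4.0.16 (R 4.3.3; TMM, filterByExpr, quasi-likelihood test, library as block, Benjamini-Hochberg adjustment over all genes tested). The block pairs classes of the same library. The planned minimum of 20 barcodes per class left 1 library, so a minimum of 5, chosen after seeing the counts, was used and kept all 6. DESeq2 1.42.0 was an alternative. The fit was tested on simulated counts. CPM is UMIs per 1000000 gene UMIs of the summed barcodes. Shares have 95% Clopper-Pearson and levels 95% Poisson intervals, for counting error only. Doublets were scored with Scrublet; where it marked under 0.5% of barcodes, the highest scores, at 0.8% per 1000 barcodes up to 10%, were removed in the alternative.

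Named genes were the 10 highest and 10 lowest called genes of a comparison with at least 50 CPM and 1 direction in all 6 libraries, up to 4 highest and 2 lowest of each list by the same criteria, and a fixed set (Krt2, Krt77, Lor, Flg, Ivl, Sbsn, Dmkn, Dsg1a, Dsc1, Klf4, Grhl3, Krt16, S100a8, S100a9, Mki67, Cdkn1a, Fth1, Tfrc, Vegfa, Jun and gate genes); genes called from a list are also named without values. The members, gene lists and tests were chosen with earlier results of these data known. The 10 gate genes were left out of counts. Results of some genes are not reported here.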

Additional observations from a re-analysis of the deposited data

Results flagged for a closer look

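Antibody tags were counted in 4 libraries and enter no comparison above. The median member held 2035 tag UMIs in chronic and 1771.5 in irradiated and 1133.5 in acute, against 1734 in normal, whose label names no treatment. Over all kept barcodes the median was 2199 for chronic, 1731 for irradiated and 1190 for acute, against 1736 for normal. The tags were not used to assign barcodes to animals, since no source names what each tag marks.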

How the results depend on the processing

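Every call shared between the reported fit and an alternative kept its direction, while the counts changed. The fit without pairing the classes by library (no replicate block) called 92 genes higher and 78 lower against the basal gate and 44 higher and 22 lower against the follicle or wound gate. Between the 6 labels: No paired analysis was possible because each label has 1 library, numbered 1. Against the basal gate, requiring 10 UMIs of Krt1 and Krt10 gave 138 higher and 138 lower, at most 10% mitochondrial UMIs 149 and 152, thinning to 1000 UMIs 24 and 29 of 288 tested, and no low-count filter 401 lower. Against the follicle or wound gate, no filter gave 154 higher and 529 lower, thinning 12 and 25 of 314, leaving out barcodes over 50000 UMIs 117 higher, the gate of 10 gave 153 lower, and leaving out both libraries without antibody tags 159 lower. Leaving out 1 library gave 121 to 230 higher and 128 to 216 lower against the basal gate, and 40 to 154 higher and 21 to 116 lower against the follicle or wound gate. Shares moved to 0.0595% in continuous and 0.142% in chronic after thinning, and to 0.0136% in irradiated and 0.0282% in normal with the gate of 10. The alternatives without very deep barcodes and without untagged libraries were chosen after seeing the data.

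Log2 differences changed sign for genes that had not passed, and for Cdkn1a. Thinned, Cdkn1a was −0.041 against the basal gate and −0.12 against the follicle or wound gate. In that comparison, without barcodes over 50000 UMIs, Jun was 0.058, Vegfa 0.024, Tfrc −0.0603 and Mki67 −0.48. With no low-count filter Tfrc was −0.18 and Mki67 −0.18; with DESeq2 Ivl was −0.0929 and Mki67 −0.60; with the gate of 10 Mki67 was −0.74. Leaving out 1 library, Ivl ranged from −0.79 to 0.74, Mki67 from −0.62 to 0.33 and Tfrc from −0.018 to 0.29. The cause of these changes was not tested. The planned comparisons of irradiated with normal and of each patch label with irradiated were not run, since they required 50 members per library and the libraries held 8 to 23. With so few members, a gene at 0 in a library may be present below 5.58 CPM in chronic or 77.7 CPM in normal.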

Other observations

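Other gene lists gave few calls by edgeR. Heat shock genes were lower in members than in the basal gate in 5 of 16 tested (among them Hsp90aa1, Hsph1 and Hspd1), with 0 higher and a median log2 difference of −0.16. With at most 10% mitochondrial UMIs 4 were lower. The reported count was 1 without acute, 2 without continuous, 3 when any other library was left out, and 0 without the block. Hypoxia and glycolysis genes were higher in 2 of 15 (Higd1a and Gapdh), a share near the 10.9% called higher over all genes, and Gapdh lost its call without acute, chronic or irradiated. Of hair follicle genes 2 of 7 were higher, among them Crabp2, and 2 lower, Ptn and Lhx2. Areg, a ligand of the EGF receptor, was higher and Dusp6 lower among 7 genes of that pathway. These shares were near the 10.9% higher and 11.5% lower over all genes. The interferon-induced gene Ifi27 was higher of 2 tested. Among 8 genes of the p53 response Cdkn1a was higher and Gadd45a lower, again near the shares over all genes.

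Against the basal gate 0 of 10 antigen presentation genes, 0 of 8 proliferation genes and 0 of 4 sebaceous genes passed by edgeR. At an unadjusted p under 0.05 these lists gave 1, 0 and 1 genes, and DESeq2 called 0, 0 and 1. Against the follicle or wound gate edgeR called 0 of 25 immediate early and AP-1 genes (3 at an unadjusted p under 0.05, 0 by DESeq2), 0 of 16 heat shock genes (6 and 0), 0 of 17 antigen presentation genes (2 and 0), 0 of 14 p53 genes (0 and 0), 0 of 16 proliferation genes (0 and 0) and 0 of 6 interferon genes (2 and 0). The 12 sebaceous genes tested had a median log2 difference of −2.62 with 0 called; 9 had an unadjusted p under 0.05, DESeq2 called 6 lower, and edgeR called 7 lower without continuous.

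In the follicle or wound comparison, cytokine genes were lower in 3 of 22 (Cxcl1, Ccl2 and Il19; Ccl2 lost its call without chronic), wound genes were higher in 2 of 26 (Stfa3 and Serpinb3b, the second not without irradiated) and lower in 2 (Lcn2 and Mmp13), and hypoxia genes were higher in 2 of 20 (Higd1a, a call lost without chronic or irradiated, and Egln1). Oxidative stress genes were higher in 1 of 20 (Prdx5) and lower in 1 (Mt2, a call lost without irradiated or normal), hair follicle genes higher in 2 of 10 (Krt80 and Crabp2) and lower in 1 (Lhx2), and Dusp6 was the 1 gene lower of 12 in the EGF receptor list.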
